A study of Mus musculus with 10 samples.

Results

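Cadherins and the epithelial adhesion gene Epcam were followed through the gallbladder and cystic duct of mouse embryos. The genes are Cdh1, Cdh2, Cdh6, Cdh11, Cdh17 and Epcam. They were chosen by name, and every probe set that the platform table assigns to only 1 of these genes was used, which gave 10 of the 45101 probe sets on the array for 6 of the 18193 genes read by single-gene probe sets. A probe set is a group of short oligonucleotides that read 1 transcript or several forms of it. Total RNA of embryos at 15 days post coitum (dpc) was hybridized to Affymetrix arrays in 5 groups of 2 biological replicates. The groups were Sox17+/- gallbladder of ICR, an outbred stock (replicates 1 and 2), Sox17+/- gallbladder of C57BL/6 (B6), an inbred strain (replicates 3 and 4), wild type cystic duct of ICR, wild type gallbladder of ICR and wild type gallbladder of B6. The cystic duct, through which bile enters and leaves the gallbladder, was sampled from wild type ICR embryos alone. Sox17 is an endodermal transcription factor, and Sox17+/- embryos carry 1 altered copy in all their cells. The labels do not describe the allele, do not say whether a sample holds 1 embryo or a pool, and give no sex.

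Classical cadherins are calcium-dependent membrane proteins that bind like molecules on the next cell and are tied to the actin skeleton through catenins. Cdh1 (E-cadherin) is the cadherin of epithelia, Cdh2 (N-cadherin) is found in mesenchymal, neural and liver cells, and Cdh11 is found in mesenchyme. Cdh6 is a cadherin of the developing kidney and neural crest, and Cdh17, with a short cytoplasmic tail, is the cadherin of the intestinal epithelium. Epcam is a membrane glycoprotein of epithelia, the bile ducts among them, that is unrelated to cadherins in sequence. The gallbladder at this stage is an epithelial sac wrapped in mesenchyme and smooth muscle, so a whole organ holds cells of several types.

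The promoters of Cdh6 and Epcam are shown. Only these 2 of the 6 genes were left after the promoter table used here was filtered by chromosome. Each has a probe set that passed the test between regions. So does Cdh11, whose promoter was not in the filtered table. The table was taken from RefSeq on the build GRCm38.p6. Each promoter shown runs from 250 bases before the start of the gene to 50 bases after it, 5′ to 3′ on the strand of the gene. Cdh6 lies at chr15:13173626-13173925 on the minus strand and Epcam at chr17:87635729-87636028 on the plus strand. Capitals mark CACCTG or its reverse complement CAGGTG, the E-box that repressors of the Snai and Zeb families bind.
Cdh6 promoter: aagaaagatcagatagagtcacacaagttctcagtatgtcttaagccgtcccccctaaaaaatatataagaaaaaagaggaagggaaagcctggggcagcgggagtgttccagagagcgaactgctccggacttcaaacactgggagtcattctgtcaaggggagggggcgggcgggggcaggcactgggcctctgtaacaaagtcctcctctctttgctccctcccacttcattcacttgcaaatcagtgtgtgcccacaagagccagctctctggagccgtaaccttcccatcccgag
Epcam promoter: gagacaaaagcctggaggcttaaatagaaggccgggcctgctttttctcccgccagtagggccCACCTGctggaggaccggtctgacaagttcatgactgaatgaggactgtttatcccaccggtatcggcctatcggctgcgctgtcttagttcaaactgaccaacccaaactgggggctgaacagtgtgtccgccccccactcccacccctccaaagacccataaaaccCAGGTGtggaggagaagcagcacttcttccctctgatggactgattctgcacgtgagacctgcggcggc
The Epcam window held 2 E-boxes, whose first bases lie at -187 and -19 from the start of the gene, and the Cdh6 window held 0. The SOX core motif ACAAT, searched with its reverse complement ATTGT, had 0 matches in either window, so no match overlapped an E-box. Of 32851 promoters of the same length in the table, 20.2% held the E-box and 31% held ACAAT or ATTGT. GC content was 53% in the Cdh6 window and 57% in the Epcam window, and the median of all promoters was 52.7%. A match of letters is a description of the sequence and does not show that a factor binds there.

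All levels below are log2 signals after quantile normalization, and a difference of 1 is a 2-fold change in signal. Signals of different probe sets are not compared with each other, because probes differ in affinity. Sox17 was the check of the labels. On 1 of its 2 probe sets the log2 signal was 7.65 and 7.90 in ICR and 8.03 and 7.91 in B6 Sox17+/- gallbladder, against 9.52 and 9.24 in ICR and 9.29 and 9.04 in B6 wild type gallbladder. All 4 Sox17+/- samples lay below all 4 wild type samples, and the fall of 2.64-fold passed (limma adjusted p = 0.00927). As deposited, the medians of the samples lay between 5.51 and 6.07 and their interquartile ranges between 2.75 and 3.85, lowest in cystic duct replicate 2. Replicates correlated at r = 0.967 to 0.995 across 31526 probe sets in the 4 gallbladder groups and at r = 0.900 in cystic duct. The cystic duct replicates differed by over 1 log2 unit in 8172 probe sets, against 32 to 1307 in the gallbladder pairs, so every cystic duct value below rests on a pair with a wider spread.

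**Figure D1:**
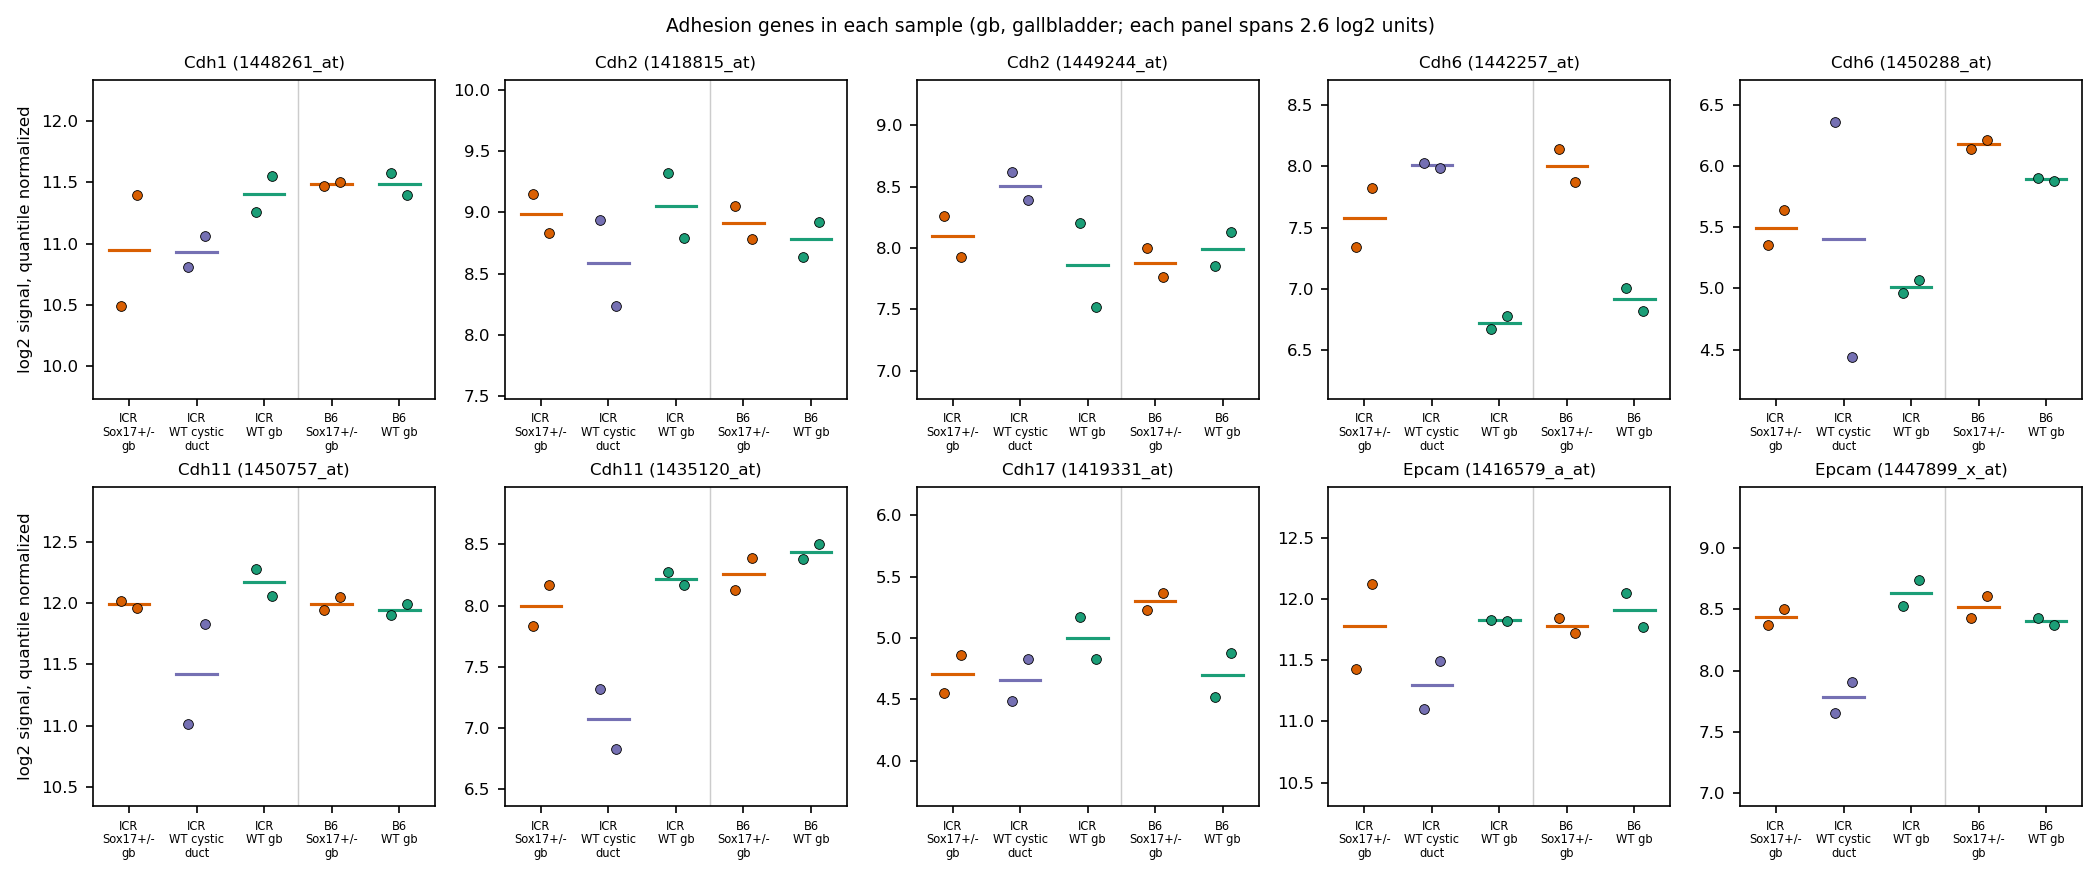
Log2 signal after quantile normalization (y axis) of each of the 10 probe sets in every sample, by group (x axis; gb, gallbladder); points are samples, bars are group means of 2 samples, and each panel spans the same number of log2 units. Cdh6 1442257_at lies between 7.34 and 8.14 in Sox17+/- gallbladder and cystic duct and between 6.67 and 7.01 in wild type gallbladder, while the 2 cystic duct points of Cdh6 1450288_at lie at 6.36 and 4.44.

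Between Sox17+/- and wild type gallbladder over both strains, 0 of the 10 probe sets passed the threshold of 0.05 on the limma adjusted p, with 2 at an unadjusted p under 0.05. Over all 31526 probe sets tested, 0.114% passed and 9.15% had an unadjusted p under 0.05. The 2 with a small unadjusted p both read Cdh6, and the other 8 differed by at most 0.23 log2 units in size. The median difference of the 10 was -0.00284 log2 units, against -0.0119 over all probe sets tested. The largest difference among them was the higher Cdh6 signal on 1442257_at.

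Cdh6 on 1442257_at stood at 7.34 and 7.82 in ICR and 8.14 and 7.87 in B6 Sox17+/- gallbladder, against 6.67 and 6.78 in ICR and 7.01 and 6.82 in B6 wild type gallbladder. Every Sox17+/- sample was above every wild type sample, a pattern met in this direction by 1 of the 10 probe sets and by 1.38% of all those tested. The difference was 0.97 log2 units (SE 0.14, 95% interval 0.65 to 1.29), or 1.96-fold, and it missed the threshold (limma adjusted p = 0.0671, unadjusted p = 0.000155). It was 0.86 log2 units in ICR and 1.09 in B6 (limma adjusted p = 0.247 and 0.359), and the difference between the strains, B6 minus ICR, was 0.24 (SE 0.27, limma adjusted p = 0.882). The threshold was crossed when each gene was read by its probe set with the highest mean (0.97, limma adjusted p = 0.0407) or by the mean of its probe sets (0.68, limma adjusted p = 0.0469), and when ICR wild type gallbladder replicate 2 was left out (1.00, limma adjusted p = 0.0122). With the cystic duct pair added to the estimate of the spread, the limma adjusted p was 0.209.

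The other Cdh6 probe set, 1450288_at, gave 5.35 and 5.64 in ICR and 6.14 and 6.21 in B6 Sox17+/- gallbladder, against 4.96 and 5.07 in ICR and 5.90 and 5.88 in B6 wild type gallbladder. Within each strain both Sox17+/- samples were above both wild type samples, but ICR Sox17+/- samples lay below B6 wild type samples. The difference over both strains was 0.39 log2 units (SE 0.10, limma adjusted p = 0.346), smaller than on 1442257_at and in the same direction. Why 2 probe sets of 1 gene differ in size was not tested.

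Markers of other cells also lay apart between the genotypes, some in both strains, as Cdh6 did, and some in 1. Over both strains 3 of the 12 marker lists had sums that did not overlap between the genotypes. Skeletal muscle genes summed to 9.23 to 12.43 in Sox17+/-, against 8.89 to 9.02 in wild type gallbladder, and 4 of 8 did not overlap and were higher in Sox17+/-, against 1.38% of all probe sets. Smooth muscle genes summed to 14.37 to 14.45 in Sox17+/-, against 14.54 to 14.63 in wild type gallbladder. In ICR 3 of 7 did not overlap and were lower in Sox17+/-, against 22.1% of all, and 2 were higher, against 15.6%. In B6 5 of 7 did not overlap and were lower, against 22.1% of all, and 0 were higher, against 18.7%. Neural genes, which were dim, summed to 7.97 to 8.22 in Sox17+/-, against 7.65 to 7.91 in wild type gallbladder. Over both strains 0 of the 4 tested neural genes were higher without overlap, against 1.38% of all. In ICR 3 of the 4 were, against 15.6% of all, and in B6 0 were, against 18.7%. In limma 0 genes of these 3 lists passed, and their part in the Cdh6 values was not tested.

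The sums of other lists lay apart in 1 strain. The summed signal of 9 measured hepatocyte genes was 15.57 to 15.90 in ICR Sox17+/- gallbladder, against 14.60 to 15.00 in ICR wild type gallbladder, and 8 of the 9 did not overlap between these groups, all higher in Sox17+/-, against 15.6% of all probe sets. In limma 0 of the 9 passed and 8 had an unadjusted p under 0.05, against 11.9% of all. In B6 the same sum was 15.70 to 15.76 in Sox17+/- and 15.37 to 15.81 in wild type gallbladder, which overlap, and the Cdh6 difference there was 1.09 log2 units. Markers of biliary epithelium summed to 13.12 to 13.25 in ICR Sox17+/-, against 12.42 to 12.63 in ICR wild type gallbladder, and 5 of 6 did not overlap, all higher in Sox17+/-, against the same 15.6% of all. In B6 their sum was 13.47 to 13.51 in Sox17+/- and 13.24 to 13.53 in wild type gallbladder, which overlap. In limma 0 of the 6 passed in either strain, and the part of these markers in the ICR values was not tested. The sums of the intestinal and pancreas lists were also higher in ICR Sox17+/- (8.49 to 8.68 and 7.18 to 7.27) than in ICR wild type gallbladder (8.24 to 8.28 and 7.05 to 7.08). Both lists were dim, with 3 of 7 intestinal and 3 of 5 pancreas genes below the filter on dim probe sets. Of 4 tested intestinal genes 1 was higher without overlap and 1 was lower. Of 2 tested pancreas genes 1 was higher and 0 were lower, against 15.6% and 22.1% of all. The leukocyte sum was higher in B6 Sox17+/- (12.74 to 13.03) than in B6 wild type gallbladder (12.58 to 12.64). The mesenchyme sum was slightly lower in B6 Sox17+/- (16.59 to 16.62) than in B6 wild type gallbladder (16.63 to 16.65). Of its 9 genes 3 were higher without overlap and 2 were lower, against 18.7% and 22.1% of all. The skeletal muscle sum was highest in B6 Sox17+/- gallbladder replicate 3, at 12.43, against at most 9.74 in the other 9 samples. Without that sample the Cdh6 difference over both strains was 0.91 log2 units (limma adjusted p = 0.28). All 9 hepatocyte genes lay above the filter on dim probe sets. Fewer cells of a type and less RNA per cell cannot be told apart in whole organs.

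Cdh1 differed by less than its spread between Sox17+/- and wild type gallbladder. It stood at 10.49 and 11.40 in ICR and 11.47 and 11.50 in B6 Sox17+/- gallbladder, against 11.26 and 11.55 in ICR and 11.58 and 11.40 in B6 wild type gallbladder. The 2 ICR Sox17+/- samples lay far apart, and replicate 1 was the lowest of all 10 samples. The difference over both strains was -0.23 log2 units (95% interval -0.67 to 0.21, limma adjusted p = 0.740). Without ICR Sox17+/- gallbladder replicate 1 it was -0.01. The interval reaches from a level 1.59-fold below wild type to a small rise.

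Epcam was close between genotypes on both of its probe sets. On 1416579_a_at it stood at 11.43 and 12.12 in ICR and 11.84 and 11.72 in B6 Sox17+/- gallbladder, against 11.83 and 11.82 in ICR and 12.05 and 11.77 in B6 wild type gallbladder. The groups overlapped, with a difference of -0.09 log2 units (95% interval -0.44 to 0.26, limma adjusted p = 0.888). On 1447899_x_at, a type of probe set that can read related transcripts as well, the difference was -0.04 (95% interval -0.25 to 0.17, limma adjusted p = 0.925).

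Cdh11, the mesenchymal cadherin, gave the narrowest interval of the 10 on 1450757_at. It stood at 12.02 and 11.96 in ICR and 11.94 and 12.05 in B6 Sox17+/- gallbladder, against 12.28 and 12.06 in ICR and 11.90 and 11.99 in B6 wild type gallbladder. The 8 gallbladder samples lay between 11.90 and 12.28, and the difference was -0.07 (95% interval -0.22 to 0.09, limma adjusted p = 0.803). On 1435120_at it was -0.20 (95% interval -0.46 to 0.06, limma adjusted p = 0.630).

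Cdh2 had overlapping groups on both probe sets. On 1418815_at the level was 9.15 and 8.83 in ICR and 9.05 and 8.78 in B6 Sox17+/- gallbladder, against 9.32 and 8.79 in ICR and 8.64 and 8.92 in B6 wild type gallbladder, a difference of 0.03 log2 units (95% interval -0.32 to 0.39, limma adjusted p = 0.963). On 1449244_at the difference was 0.06 (95% interval -0.34 to 0.47, limma adjusted p = 0.937). The intervals of both probe sets reach to either side of 0, so neither a small rise nor a small fall can be told from no difference.

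Cdh17, read by 1 probe set, was dim: its 10 values ran from 4.49 to 5.37 log2 units, and the filter on dim probe sets was at 4.47. It stood at 4.55 and 4.86 in ICR and 5.23 and 5.37 in B6 Sox17+/- gallbladder, against 5.17 and 4.83 in ICR and 4.52 and 4.88 in B6 wild type gallbladder. The 2 B6 Sox17+/- samples were the highest of all 10 after quantile normalization. As deposited they stood at 5.11 and 5.27, below the 5.60 of ICR wild type gallbladder replicate 1. In B6 the difference was 0.60 log2 units (SE 0.19, unadjusted p = 0.0172), in ICR it was -0.30, and the test of the difference between the strains gave 0.90 (SE 0.28, unadjusted p = 0.0134). Neither passed over all probe sets (limma adjusted p = 0.956 in B6 and 0.808 between the strains). In that test between the strains 0 of the 10 passed and 1 had an unadjusted p under 0.05, against 0% and 5.87% of all probe sets.

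Within each strain alone, 0 of the 10 probe sets passed in ICR, where 0.0381% of all did, and 0 in B6, where 0.00952% did, each with 2 of the 10 at an unadjusted p under 0.05 in limma, against 11.9% of all in ICR and 4.66% in B6. In ICR 2 probe sets did not overlap and were higher in Sox17+/- (both of Cdh6), against 15.6% of all, and 3 were lower (both of Cdh11 and Epcam 1447899_x_at), against 22.1% of all. In B6 3 were higher (both of Cdh6 and Cdh17), against 18.7% of all, and 0 were lower, against 22.1% of all. With 2 samples a group, such separation is common across the array.

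**Figure D2:**
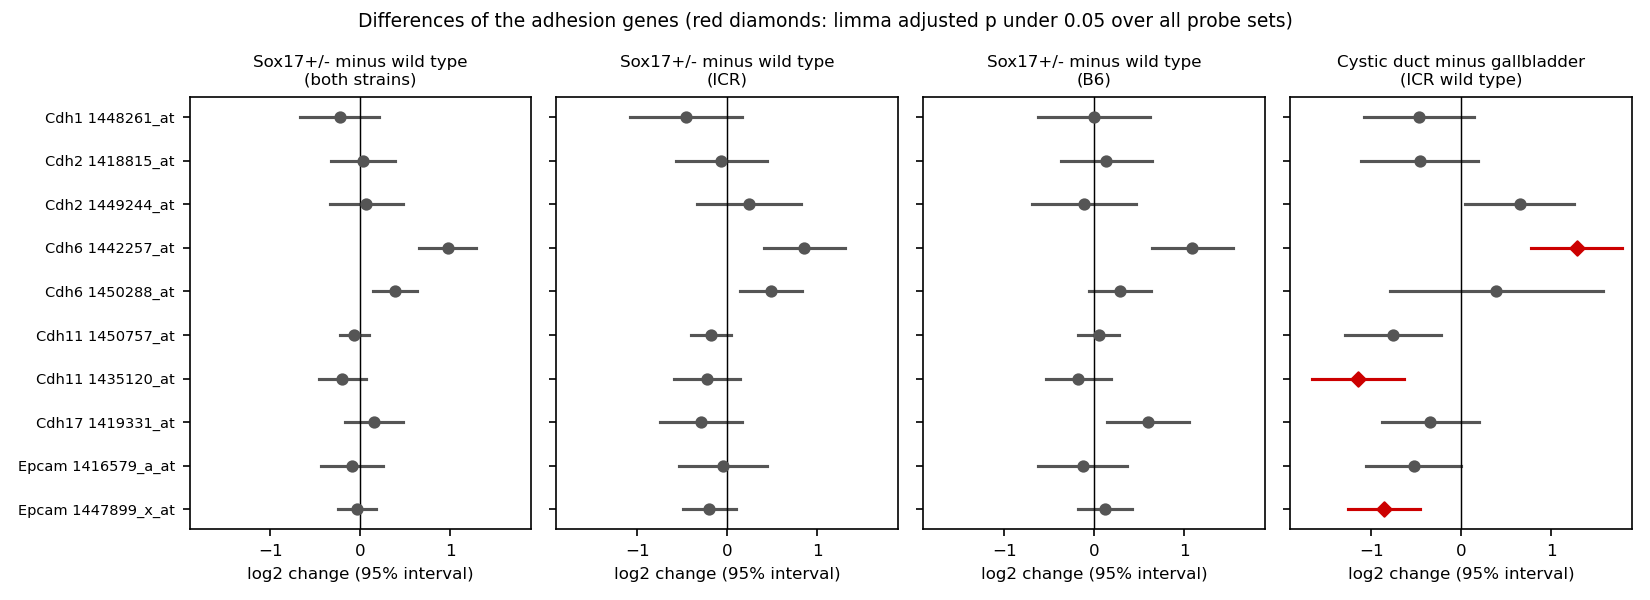
Log2 difference (x axis) of each probe set (y axis) in 4 comparisons, with bars for the 95% interval of limma and red diamonds for an adjusted p under 0.05 over all probe sets. The 3 diamonds are Cdh6 1442257_at at 1.28, Cdh11 1435120_at at -1.15 and Epcam 1447899_x_at at -0.85, all in cystic duct against gallbladder; in the genotype comparisons the largest difference over both strains is that of Cdh6 1442257_at.

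Between wild type cystic duct and wild type gallbladder of ICR, 3 of the 10 probe sets passed, where 8.75% of all probe sets did. Cdh6 rose on 1 of its probe sets, and Cdh11 and Epcam fell on 1 probe set each. With these, 5 of the 10 had an unadjusted p under 0.05 in limma, against 27.2% of all. Of the 10, 1 rose, against 3.22% of all, and 2 fell, against 5.54% of all. The groups did not overlap for 2 that were higher in cystic duct, against 19% of all, and for 6 that were lower, against 27.6% of all. The median difference of the 10 was -0.47 log2 units, against -0.05 over all probe sets. These comparisons share the 2 ICR wild type gallbladder samples with the ICR comparison of genotypes.

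Cdh6 on 1442257_at stood at 8.03 and 7.99 in cystic duct, against 6.67 and 6.78 in ICR wild type gallbladder. After quantile normalization the replicates of each group lay close to each other and the groups did not overlap. As deposited, the cystic duct samples lay further apart, at 8.17 and 7.51, against 7.01 and 6.76 in ICR wild type gallbladder, still without overlap. The rise was 1.28 log2 units (SE 0.22), or 2.43-fold (95% interval 1.71 to 3.46, limma adjusted p = 0.0139). Without ICR wild type gallbladder replicate 1 the difference was 1.23 and missed the threshold (limma adjusted p = 0.0791), as it did with the values as deposited (0.95, limma adjusted p = 0.0876), with each sample centred on its median (1.06, 0.0685) and with the mean of both probe sets (0.84, 0.103). With array weights, or with only the 4 samples compared, none of the 3 differences passed (limma adjusted p = 0.378 and 0.282 for Cdh6), so this one passed in 14 of 20 alternatives. Over the 5 groups, cystic duct (mean 8.01) and B6 Sox17+/- gallbladder (8.01) were highest and overlapped, followed by ICR Sox17+/- gallbladder (7.58). B6 and ICR wild type gallbladder (6.92 and 6.73) were lowest, below every sample of the other groups.

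On 1450288_at, by contrast, the 2 cystic duct samples stood at 6.36 and 4.44, one above and one below the 4.96 and 5.07 of ICR wild type gallbladder. No direction could be given, with a difference of 0.39 log2 units (SE 0.51, limma adjusted p = 0.637). It was 1.35 without cystic duct replicate 2 and -0.57 without replicate 1, each past the threshold in the remaining samples (limma adjusted p = 0.00272 and 0.0340). The 2 probe sets of Cdh6 thus agreed in cystic duct replicate 1 and disagreed in replicate 2.

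Cdh11 was lower in cystic duct on both probe sets and passed on 1. On 1435120_at it stood at 7.32 and 6.83 in cystic duct, against 8.27 and 8.17 in ICR wild type gallbladder, and both cystic duct samples were below all 8 gallbladder samples. The fall was 2.21-fold (log2 difference -1.15, SE 0.22, limma adjusted p = 0.0211). It missed the threshold without ICR wild type gallbladder replicate 1 (-1.09, limma adjusted p = 0.109) or 2 (-1.20, 0.0723), and without B6 wild type gallbladder replicate 3 (0.0576) or 4 (0.0579). On 1450757_at the level was 11.01 and 11.83 in cystic duct, against 12.28 and 12.06 in ICR wild type gallbladder. Both cystic duct samples were again below all 8 gallbladder samples, with a difference of -0.75 (95% interval -1.29 to -0.22, limma adjusted p = 0.085). That difference passed with the values as deposited (-1.09, limma adjusted p = 0.00592) and without either cystic duct replicate (-0.34 without replicate 1 and -1.16 without replicate 2, limma adjusted p = 0.0457 and 0.00107).

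Epcam was lower in cystic duct on both probe sets and passed on the one that can read related transcripts. On 1447899_x_at it stood at 7.65 and 7.91 in cystic duct, against 8.53 and 8.74 in ICR wild type gallbladder, and both cystic duct samples were below all 8 gallbladder samples. The fall was 1.81-fold (log2 difference -0.85, SE 0.17, limma adjusted p = 0.0239). It missed the threshold without any 1 of 6 gallbladder samples, among them ICR wild type replicate 2 (-0.75, limma adjusted p = 0.115) and replicate 1 (-0.96, 0.0744). The other 4 were B6 Sox17+/- replicates 3 and 4 (0.0540 and 0.0545) and B6 wild type replicates 3 and 4 (0.0677 each). On 1416579_a_at the level was 11.10 and 11.49 in cystic duct, against 11.83 and 11.82 in ICR wild type gallbladder, a difference of -0.53 (95% interval -1.06 to 0.000309, limma adjusted p = 0.184).

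Cdh1 and Cdh2 missed the threshold in cystic duct. Cdh1 stood at 10.81 and 11.06 in cystic duct, against 11.26 and 11.55 in ICR wild type gallbladder, a difference of -0.47 log2 units (95% interval -1.08 to 0.14, limma adjusted p = 0.284). The cystic duct samples were below both of these, but 1 ICR Sox17+/- gallbladder sample (10.49) was lower still. The 2 probe sets of Cdh2 pointed in opposite directions. On 1449244_at it stood at 8.62 and 8.39 in cystic duct, against 8.20 and 7.52 in ICR wild type gallbladder (difference 0.65, limma adjusted p = 0.160). On 1418815_at it stood at 8.94 and 8.24 in cystic duct, against 9.32 and 8.79 in ICR wild type gallbladder (difference -0.46, limma adjusted p = 0.316). Without cystic duct replicate 1, 1418815_at passed at -0.82 (limma adjusted p = 0.0371). Cdh17 stood at 4.49 and 4.83 in cystic duct, against 5.17 and 4.83 in ICR wild type gallbladder, close to the filter.

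The cell types in the dissected pieces also differed between regions. The summed signal of the hepatocyte genes was 16.79 to 17.12 in cystic duct, against 14.60 to 15.00 in ICR wild type gallbladder, and 8 of 9 rose, where 3.22% of all probe sets did, with a median of 3.49 log2 units over the 9. Smooth muscle genes summed to 12.44 to 13.22 in cystic duct and 14.54 to 14.63 in gallbladder, and 5 of 7 fell, where 5.54% of all did. Mesenchymal genes summed to 15.88 to 16.45 in cystic duct and 16.52 to 16.64 in gallbladder, and 3 of 9 fell, against the same 5.54%. The lower Cdh11 signal therefore stood beside lower mesenchymal and smooth muscle markers, and the part these have in it was not tested. Markers of biliary epithelium summed to 12.95 to 13.15 in cystic duct and 12.42 to 12.63 in gallbladder. Among them Krt18, a keratin of simple epithelia, rose by 0.59 log2 units (limma adjusted p = 0.0414), and Krt19, a keratin of bile ducts, fell by 1.15 (limma adjusted p = 0.0149). The lower Epcam signal thus stood beside epithelial markers of which 1 of 6 rose and 1 fell, and their part in it was not tested.

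**Figure D3:**
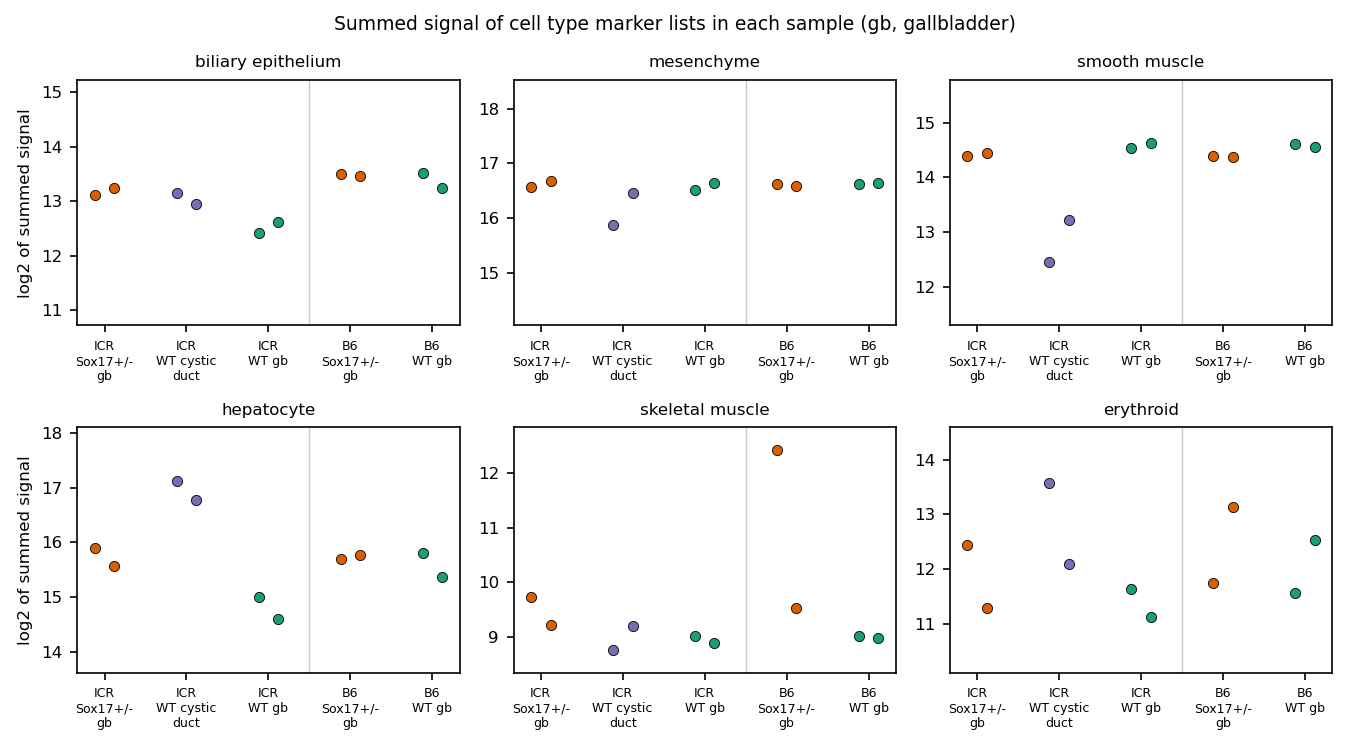
Log2 of the summed signal (y axis) of the measured genes of 6 marker lists in every sample, by group (x axis; gb, gallbladder); each point is 1 sample. Cystic duct samples are highest for hepatocyte genes (16.79 and 17.12) and lowest for smooth muscle genes (12.44 and 13.22), and 1 B6 Sox17+/- sample stands apart for skeletal muscle genes (12.43).

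Between B6 and ICR gallbladder, over both genotypes, 1 of the 10 probe sets passed, where 16.2% of all did. It was Cdh6 1450288_at, whose 4 B6 samples (5.88 to 6.21) were all above the 4 ICR samples (4.96 to 5.64), as were those of 12.2% of all probe sets. The difference was 0.78 log2 units (SE 0.10, limma adjusted p = 0.00386), and it was 0.31 on 1442257_at (SE 0.14, limma adjusted p = 0.169), where the strains overlapped. With the cystic duct pair added to the estimate of the spread, the difference on 1450288_at did not pass (limma adjusted p = 0.319). A sequence difference between the strains under a probe would give the same reading as a difference in transcript, and the 2 cannot be told apart here. The other members differed between the strains by at most 0.31 log2 units in size and did not pass.

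The other adhesion genes were read in 6 lists of 100 entries, of which 95 were measured and 79 passed the filter on dim probe sets. Between Sox17+/- and wild type gallbladder over both strains, 2 of the 79 passed, both higher in Sox17+/-, where 0.114% of all probe sets passed. Of 18 other cadherins 1 rose and 0 fell, and their median difference was -0.07 log2 units, against -0.01 over all probe sets. The one that rose was Cdh16, a cadherin of the kidney tubule with a short cytoplasmic tail. Cdh16 stood at 7.72 and 7.72 in ICR and 7.82 and 7.53 in B6 Sox17+/- gallbladder, against 6.74 and 6.39 in ICR and 6.29 and 6.43 in B6 wild type gallbladder. All Sox17+/- samples were above all wild type samples, and the rise was 2.35-fold (log2 difference 1.24, SE 0.12, limma adjusted p = 0.0248). A fit with the replicate number as a block gave the same difference, which missed the threshold (limma adjusted p = 0.0709). It passed in 10 of 18 alternatives, and its difference ran from 1.15 to 1.32 over them. It missed the threshold without any 1 of 6 samples, the 4 Sox17+/- samples and the 2 of B6 wild type (limma adjusted p = 0.0550 to 0.190).

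Of 7 genes listed as partners of Epcam, 1 rose and 0 fell between the genotypes, with a median of -0.16 log2 units. It was Tspan8, a tetraspanin that has been found with Epcam in membrane complexes. Tspan8 stood at 10.16 and 10.62 in ICR and 10.62 and 10.51 in B6 Sox17+/- gallbladder, against 8.61 and 8.43 in ICR and 9.23 and 8.86 in B6 wild type gallbladder. The rise was 3.25-fold (log2 difference 1.70, SE 0.13, limma adjusted p = 0.00927), and it passed in 14 of 18 alternatives. The 3 samples without which it missed the threshold were B6 Sox17+/- replicate 3 and B6 wild type replicates 3 and 4 (limma adjusted p = 0.0593 to 0.0792). With the cystic duct pair added to the estimate of the spread, it missed as well (limma adjusted p = 0.315). In ICR alone the difference was 1.87 (limma adjusted p = 0.0441), but it passed in only 4 of 18 alternatives, and in the fit with that block the limma adjusted p was 0.127. The 4 other tested probe sets of Tspan8 were also higher, by 0.63 to 1.55 log2 units, and 1 of these passed (1.10 on 1420017_at, limma adjusted p = 0.0367). Cldn7, a claudin that binds Epcam directly, stood at 9.20 in Sox17+/- and 9.60 in wild type gallbladder on average (difference -0.40, limma adjusted p = 0.389).

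The remaining lists had 0 genes that passed between the genotypes in limma, out of 16 catenins and nectins, 9 desmosomal genes, 13 genes of adhesion to the matrix and 16 regulators of the cadherin switch. At an unadjusted p under 0.05 they held 1, 3, 1 and 1 genes in the same order, where 9.15% of all probe sets lay under it. Ctnnb1 (beta-catenin, the link between cadherins and alpha-catenin) averaged 13.52 in Sox17+/- and 13.62 in wild type gallbladder (difference -0.11, limma adjusted p = 0.675). Zeb1, a repressor of Cdh1, averaged 9.53 in Sox17+/- and 9.46 in wild type gallbladder (difference 0.07, limma adjusted p = 0.834). Among the smallest p values, Plekha7, an adherens junction protein, was lower in Sox17+/- (-0.28, limma adjusted p = 0.430). So were Ppl, the desmosomal protein periplakin (-0.32, 0.433), and Lama3, a laminin chain of the epithelial basement membrane (-0.40, 0.327). Itgb1 (-0.26) and Vcl (-0.19) were lower as well (limma adjusted p = 0.557 and 0.547). Higher were Perp of the desmosome (0.29, limma adjusted p = 0.471) and the regulators Klf5 (0.33, 0.535) and Grhl2 (0.35, 0.605). Other probe sets differed by 0.01 for Plekha7 and 0.06 for Lama3, and by -0.14 to 0.12 for Grhl2.

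**Figure D4:**
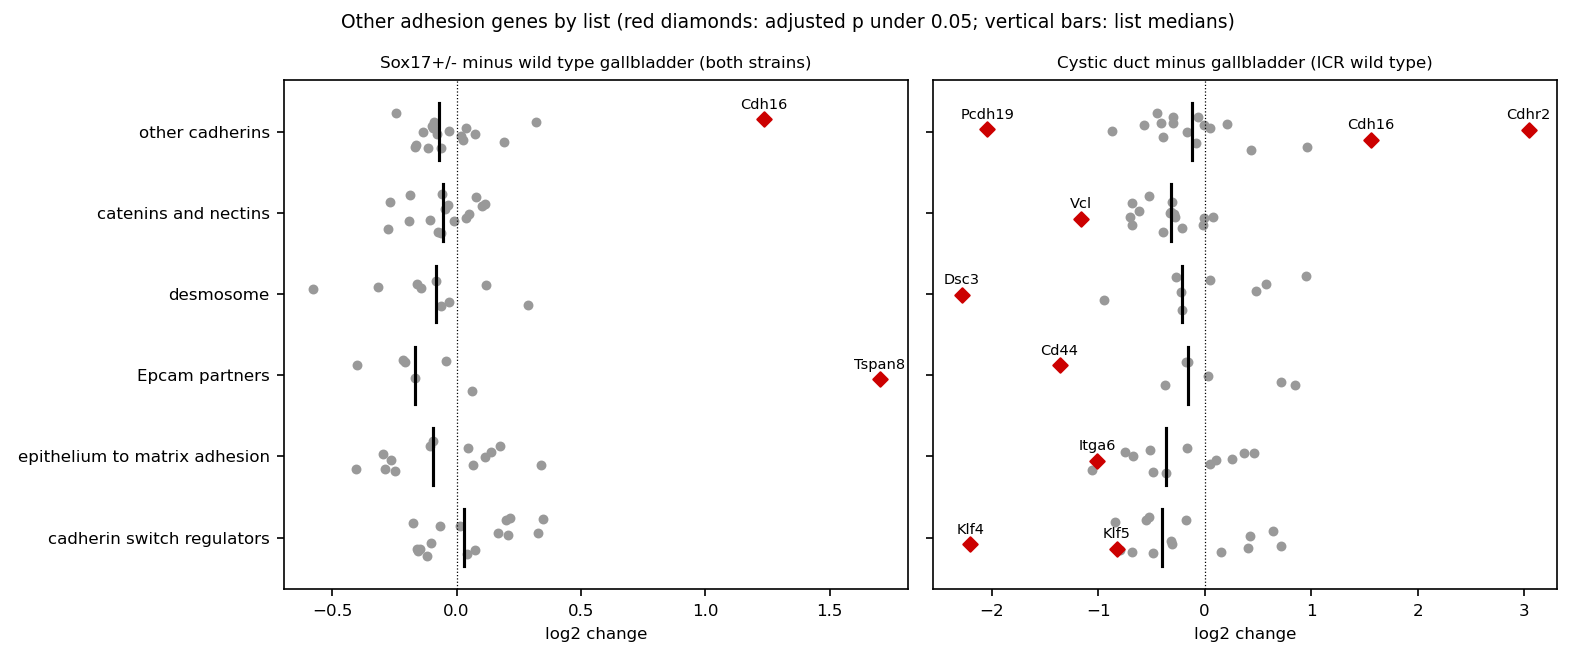
Log2 difference (x axis) of each tested gene of the 6 adhesion lists (y axis) for Sox17+/- minus wild type gallbladder across the strains (left) and cystic duct minus gallbladder of ICR wild type (right); points are genes, red diamonds have a limma adjusted p under 0.05 over all probe sets, and vertical bars are list medians. Cdh16 at 1.24 and Tspan8 at 1.70 stand apart on the left, and 9 diamonds, from Dsc3 at -2.28 to Cdhr2 at 3.04, are on the right.

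Between cystic duct and gallbladder, 9 of the 79 list genes passed, where 8.75% of all probe sets did. Of these, 2 were higher in cystic duct, where 3.22% of all were, and 7 were lower, where 5.54% of all were, and nothing particular to these lists is read from the counts. Both that rose are cadherins. Cdhr2, a protocadherin that links the microvilli of brush borders, stood at 8.70 and 7.76 in cystic duct, against 5.26 and 5.12 in ICR wild type gallbladder, and between 4.97 and 5.74 in the other 6 samples. That is 8.23-fold higher (log2 difference 3.04, SE 0.32, limma adjusted p = 0.00357), the largest difference of the 79 and past the threshold in 18 of 20 alternatives. Cdhr2 stood beside the higher hepatocyte markers given above and a higher intestinal sum (9.01 to 10.06, against 8.24 to 8.28 in ICR wild type gallbladder). Of 4 tested intestinal genes 1 was higher without overlap and 3 were lower, against 19% and 27.6% of all. The part of these markers in the Cdhr2 values was not tested. Cdh16 stood at 7.73 and 8.52 in cystic duct, against 6.74 and 6.39 in ICR wild type gallbladder, and rose 2.94-fold (limma adjusted p = 0.0168), which passed in 16 of 20 alternatives. Cdh16, like Cdh6 on 1442257_at, was higher in both Sox17+/- gallbladder and cystic duct than in wild type gallbladder of ICR, and these comparisons share the wild type samples.

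The 7 that fell in cystic duct were spread over the lists. Pcdh19, a protocadherin, stood at 6.70 and 5.39 in cystic duct, against 8.03 and 8.14 in ICR wild type gallbladder (limma adjusted p = 0.0202). Dsc3, a desmosomal cadherin of stratified epithelia, stood at 5.23 and 3.89 in cystic duct, against 7.31 and 6.37 in ICR wild type gallbladder (limma adjusted p = 0.0256). Vcl (vinculin, an actin-binding protein of junctions and of smooth muscle) fell by 1.16 log2 units, the matrix receptors Cd44 and Itga6 fell by 1.36 and 1.01, and the epithelial transcription factors Klf4 and Klf5 fell by 2.20 and 0.82 (limma adjusted p between 0.00453 for Vcl and 0.0455 for Klf5). On other probe sets Dsc3 differed by 0.25 (limma adjusted p = 0.663), Itga6 by -0.37 (0.592), Klf4 by -0.70 (0.786) and Vcl by -0.30 (0.312). The other Klf5 probe set differed by -1.45 (0.131), those of Cd44 by -1.39 and -1.63 (0.115 and 0.123), and those of Pcdh19 by -0.57 and -1.05 (0.498 and 0.0249). Itga6 passed in 11 of 20 alternatives and Klf5 in 7 of 20. The median difference was below 0 in all 6 lists, between -0.12 for other cadherins and -0.40 for regulators of the cadherin switch, and it was -0.05 over all probe sets. Lower vinculin stood beside the lower smooth muscle markers given above, and their part was not tested.

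By Pearson's r over the 10 samples, the 3 genes most like each probe set were named where its values spanned at least 1 log2 unit. Cdh6 on 1442257_at was most like Otud4 (r = 0.94), Tgm2 (r = 0.93), which encodes transglutaminase, and Acot1 (r = 0.92). Cdh6 on 1450288_at shared none of these and was most like Stx11, Pck2 and Tmed6 (r = 0.97 to 0.98). Cdh11 on 1435120_at was most like Pag1, Mcf2l and Ntrk3 (r = 0.99), and on 1450757_at it was most like Efs, Celf2 and Tnrc18 (r = 0.98). Cdh1 was most like Hnrnpa2b1, Wapl and Paxbp1 (r = 0.96 to 0.97). Epcam was most like Dnajb14, Arid4b and Clic6 (r = 0.95 to 0.97) on 1416579_a_at, and Col16a1, Kdm5d and Prkd3 (r = 0.98 to 0.99) on 1447899_x_at. The 2 probe sets of Cdh2, Cdh6, Cdh11 and Epcam had different lists of 3. The 10 points share the wide spread of the cystic duct pair, so these values describe likeness in these arrays alone. Cdh17 spanned 0.88 log2 units and was left out.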

How the data were processed

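Total RNA of embryonic mouse gallbladder and cystic duct was hybridized to Affymetrix arrays, 1 array for each of 10 samples. The authors deposited 1 log2 signal for each probe set and sample, read as log2 from the range of the values (2.20 to 15.15). How they corrected background and normalized is not stated in the labels or the file header. Samples were grouped by their titles, because the label tags for stage and genotype hold each other's values. The 6 genes, the gene lists and the tests were chosen with earlier results of these data known.

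Of 45101 probe sets, 64 controls were left out and the other values were quantile normalized. Probe sets whose mean lay at the 30th percentile (4.47 log2 units) or above were tested, 31526 in all, and all 10 of the 6 genes were among them. Group means were compared with limma 3.58.1 under R 4.3.3 (lmFit, then eBayes with a trend). Genotype and strain contrasts used the 8 gallbladder samples (4 residual degrees of freedom) and cystic duct against gallbladder all 10 samples (5 residual degrees of freedom). The cystic duct pair was left out of the first because its replicates lie further apart. P values were adjusted by Benjamini-Hochberg over all tested probe sets, with a threshold of 0.05. Few arrays limit the precision.

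All probe sets of the 6 genes were named. Genes of 6 adhesion lists and 12 marker lists were read by their brightest probe set on average, types in _x_at only where no other was present. List genes are named where they passed, or by the smallest p values where 0 of a list passed between genotypes, and Cldn7, Ctnnb1, Zeb1, Krt18 and Krt19 were named after their values were seen. Platform annotation named 34958 probe sets by 1 gene, 932 by several, and promoters came from RefSeq (GRCm38.p6). Same-numbered samples of the 2 genotypes deviated together (correlation over probe sets 0.386 in ICR and 0.275 in B6), and were taken as paired in an alternative with the replicate number as a block. Cystic duct and gallbladder numbers deviated together far less (0.0648), but in the cystic duct comparison the block covered the cystic duct samples as well. The labels name no batch, and 0 further columns of samples were present. The labels do not say whether replicates are separate embryos or pools, so p values measure the spread between these samples. Steps were tested on simulated data. Figures were drawn with Python 3.11.15 and matplotlib 3.10.9.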

Additional observations from a re-analysis of the deposited data

How the results depend on the processing

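For the 10 probe sets of the 6 genes, 1028 differences were recomputed under alternatives. Of these, 937 kept their sign and their side of the threshold, and 55 changed sign without passing on either side. Another 14 came to pass, 21 no longer passed, and 1 reversed: Cdh6 on 1450288_at in cystic duct, at -0.57 log2 units without cystic duct replicate 1 and 1.35 without replicate 2. For genotype over both strains the count of probe sets that passed was 0. It became 1 (Cdh6) with the probe set of highest mean per gene and 1 with each gene's probe sets averaged, and ran from 0 to 1 when 1 sample was left out (1 without ICR wild type gallbladder replicate 2). It stayed 0 in ICR, in B6 and between the strains under every alternative run. For strain the count was 1. It fell to 0 with a filter at the 50th percentile, with all 10 samples in 1 fit and with the probe set of highest mean per gene, the first and last of which leave out Cdh6 1450288_at. It ran from 1 to 2 when 1 sample was left out. For cystic duct the count was 3. It was 0 with array weights, 0 with only the 4 samples compared, where 0 of all probe sets passed, and 1 with the probe set of highest mean per gene. It ran from 0 (without ICR wild type gallbladder replicate 1) to 6 (without cystic duct replicate 1) when 1 sample was left out. A group reduced to 1 sample was given the spread of the other groups.

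With the replicate number as a block, 0, 1 and 3 probe sets of the 6 genes passed for genotype over both strains, strain and cystic duct, as without it. Over all probe sets, 36 passed for genotype over both strains and between 2 and 69 under the alternatives (25 with the block), up to 1145 without ICR wild type gallbladder replicate 2. In ICR 12 passed and between 1 and 40 under the alternatives (1 with the block), or 0 to 1307 without 1 sample. In B6 3 passed, and between 1 and 39, or 0 to 11 without 1 sample. Between the strains 0 passed, and up to 956 without 1 sample. For strain 5108 passed, and between 1213 and 7068. For cystic duct 2759 passed, and between 0 and 2964, or 711 to 15242 without 1 sample. Adhesion list genes that passed numbered 2 for genotype over both strains (0 to 5), 13 for strain (2 to 18) and 9 for cystic duct (0 to 35). The cause of these changes was not tested. With each gene's probe sets averaged, 2 list genes that passed for strain changed sign, Pcdh18 at -0.23 and Pvr at -0.024.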

Other observations

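Between the strains, 13 of the 79 other adhesion genes passed, where 16.2% of all probe sets did, with 9 higher and 4 lower in B6 than in ICR gallbladder. The desmosomal cadherin Dsc3 averaged 7.93 log2 units in B6 and 6.61 in ICR gallbladder (2.50-fold, limma adjusted p = 0.00920), and Dsc2 averaged 9.63 in B6 and 9.16 in ICR (limma adjusted p = 0.0248). The adherens junction genes Afdn (afadin) and Pvr were higher by 0.40 and 0.55 log2 units (limma adjusted p = 0.0404 and 0.0110), and the laminin receptor Bcam by 0.62 (limma adjusted p = 0.0204). Afdn passed in only 6 of 18 alternatives, and Pvr did not keep its sign when the mean of its probe sets was read. Lower in B6 were Itgb6, an integrin chain of epithelia, at 5.31 in B6 and 6.53 in ICR (limma adjusted p = 0.0266), and Zeb2, a repressor of Cdh1, at 7.69 in B6 and 9.08 in ICR (limma adjusted p = 0.0263). The 4 other tested probe sets of Zeb2 gave unlike values, with differences of 0.03 and 0.08 (limma adjusted p = 0.823 and 0.857) and of -0.76 and -0.995 (limma adjusted p = 0.0275 and 0.102). The other probe set of Dsc3 differed by 0.13 (limma adjusted p = 0.598). Cdh1 itself averaged 11.49 in B6 and 11.17 in ICR (difference 0.31, SE 0.19, limma adjusted p = 0.293). Without ICR Sox17+/- gallbladder replicate 2 that difference was 0.54 and passed (limma adjusted p = 0.0182). Markers of several cell types also differed between the strains, where 16.2% of all probe sets passed. Of leukocyte genes 3 of 5 tested passed and were higher in B6. Of biliary epithelium genes 2 of 6 did, with a median difference of 0.31 over the 6. Among hepatocyte, erythroid and intestinal genes 1 of 9, 1 of 5 and 1 of 4 were higher. Lower in B6 were 2 of 9 mesenchymal and 1 of 7 smooth muscle genes. The part of these markers in the adhesion values was not tested. Probe sequence differences between the strains cannot be told apart from differences in transcript.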
